A study of Mus musculus with 4 samples.

Results

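The cells described here were 172 cell barcodes called venous endothelial by a rule on their counts of unique molecular identifiers (UMIs). They were chosen out of 3388 barcodes called endothelial and 19716 barcodes past the quality limits. Of the 172, 53 held little endothelial RNA, as given below. The data were 4 single-cell RNA libraries of mouse retina, 2 Diabetic and 2 Ctrl, made from live cells that had been enriched with beads against CD31, the endothelial surface protein encoded by Pecam1. The mouse strain, sex and age, the diabetes model and its duration, and the number of animals in a library were not given in the sources used here, so p-values measured only the spread between these libraries. The series is on retinal endothelium and its barrier in diabetes, and the comparison of Diabetic with Ctrl asks how these cells differ in disease.

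A barcode counted as endothelial with at least 4 UMIs over at least 2 of Cldn5, Cdh5, Pecam1 and Flt1, at most 1 UMI of the pericyte genes Pdgfrb, Kcnj8 and Abcc9, and at most 2 UMIs of the Müller glia gene Rlbp1. Endothelial barcodes with at least 2 UMIs of Slc38a5 and Nr2f2 together were venous. From these were dropped barcodes with at least 4 UMIs over at least 2 of the inflammatory genes Lcn2, Lrg1, Ackr1 and Serpina3n, and those with several arterial or interferon-induced transcripts. Diabetic 1 gave 74 venous barcodes and Diabetic 2 gave 33, against 55 in Ctrl 1 and 10 in Ctrl 2. These were 4.35% (95% exact binomial interval 3.43 to 5.43) and 4.88% (3.38 to 6.79) of the endothelial barcodes in Diabetic, against 7.40% (5.63 to 9.53) and 3.76% (1.82 to 6.81) in Ctrl, and the intervals cover counting error only. The inflammatory genes removed 46 and 31 barcodes with enough Slc38a5 and Nr2f2 in the Diabetic libraries, against 0 and 0 in the Ctrl libraries, so the drop fell on Diabetic only.

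Veins and venules collect blood from the capillary bed, and their endothelium is the usual site of leukocyte adhesion. Nr2f2 encodes COUP-TFII, a nuclear receptor that maintains venous identity and restrains Notch signalling, the pathway of arterial fate. Slc38a5 encodes a glutamine and neutral amino acid transporter that marks venous endothelium of the central nervous system. Along retinal and brain vessels, gene expression changes gradually between artery, capillary and vein, with Cxcl12 and Mfsd2a on the capillary and arterial side and Vwf and Nrp2 on the venous side.

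By the share of the 4 endothelial genes in their UMIs, the barcodes fell into 119 rich and 53 poor. The rule had used these genes, so the split does not test the endothelial label. The 4 endothelial genes made up less than 20 of 10000 UMIs in 53 of the 172 barcodes, with a median of 1.95, and at least that share in the other 119, with a median of 92.3. Few barcodes lay between the extremes: 40 were below 5 per 10000 UMIs, 7 between 5 and 10, 6 between 10 and 20, 9 between 20 and 40, 13 between 40 and 60, and 97 above. The 53 barcodes poor in endothelial genes were very deep, at a median of 31160 UMIs, and 8.48% of their UMIs (median) came from rod and cone genes. The 119 rich barcodes had a median of 4997 UMIs and 0.589% from rod and cone genes, with a highest share of 9.91%, in Ctrl 1. Because of their depth, the poor barcodes held 77.4% and 55.4% of the venous UMIs in the Diabetic libraries, against 74.9% and 32.4% in the Ctrl libraries. The capillary class held such barcodes too, 222 of 2266, and so did the endothelial barcodes set apart by the inflammatory genes, 23 of 149. Each comparison is therefore given for all barcodes of the rule and for the 119 barcodes rich in endothelial genes (49 and 28 in Diabetic, 33 and 9 in Ctrl), a limit of 20 per 10000 UMIs that was chosen after seeing the data.

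**Figure D1:**
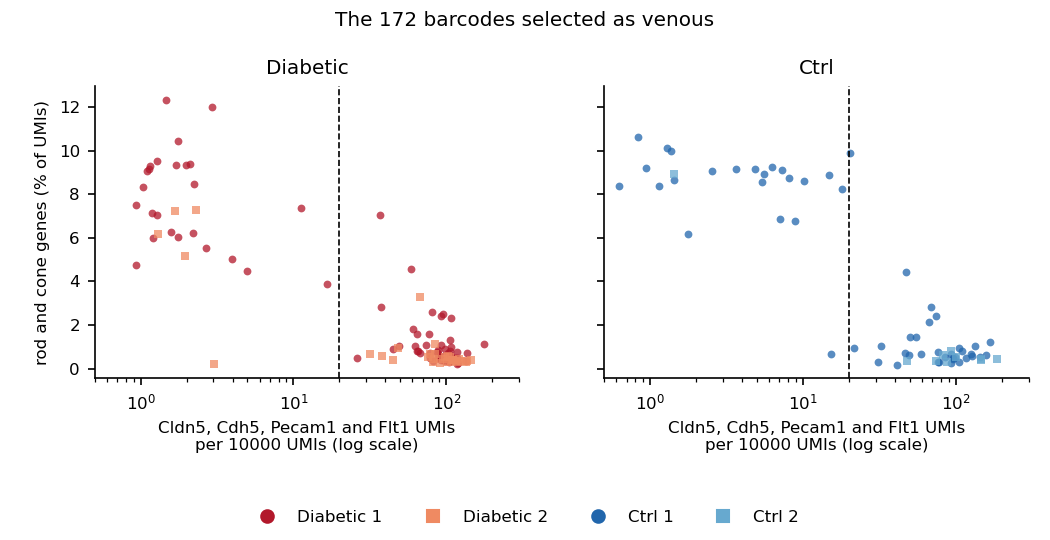
Each point is 1 of the 172 barcodes, by the share of Cldn5, Cdh5, Pecam1 and Flt1 in its UMIs (x axis, log scale, dashed line at 20 per 10000) and the share of rod and cone genes (y axis, percent), for Diabetic at left and Ctrl at right. In both groups the points fall into a cloud at high photoreceptor share left of the line, 53 barcodes with a median of 8.48%, and a cloud mostly near 0 right of it, 119 barcodes with a median of 0.589%.

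Library totals ran between 29792902 and 58792636 UMIs over 3091 to 7991 deposited barcodes. Pairs of libraries shared 5 to 9 barcode sequences, and none of these was venous in both. The rule has a background: among rods, which should lack both venous genes, 1.63% and 2.23% in Diabetic and 1.82% and 3.83% in Ctrl had at least 2 UMIs of Slc38a5 and Nr2f2, at median depths of 2042 and 2834 in Diabetic and 2200 and 3327 UMIs in Ctrl. Among endothelial barcodes rich in endothelial genes these shares were 7.70% and 12.2% in Diabetic and 6.23% and 5.88% in Ctrl, before any drop. Their median depths were 2702 and 3716 UMIs in Diabetic and 2696 and 3486 in Ctrl. After the inflamed, arterial and interferon drops, venous barcodes made up 3.17% and 4.50% in Diabetic and 5.015% and 3.53% in Ctrl. The Ctrl 2 share of 3.53% lay below the 3.83% of its rods, which underwent no drop. Its 5.88% before any drop, the like measure, lay above.

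The genes that chose the barcodes were spread as follows, with levels in UMIs per 1000000 UMIs of a class in a library (CPM). Slc38a5 (ENSMUSG00000031170; GRCm38 chromosome X, 8271133 to 8280179, plus strand) had 233 and 228 CPM in the rich Diabetic venous barcodes, and 195 and 377 CPM in the rich Ctrl venous barcodes. Nr2f2 (ENSMUSG00000030551; GRCm38 chromosome 7, 70351944 to 70366735, minus strand) had 255 and 246 CPM in Diabetic, and 350 and 325 CPM in Ctrl. These values describe the selection and were not tested. In the poor barcodes Slc38a5 was nearly missing, with 5.39 and 0 CPM in Diabetic and 28.4 and 0 CPM in Ctrl, while Nr2f2 stood at 81.9 and 127 CPM in Diabetic and 73.5 and 107 CPM in Ctrl. A list of 19 other venous identity genes summed to 300 and 179 CPM in poor Diabetic and 419 and 644 in poor Ctrl barcodes. Rods had 250 and 183 in Diabetic and 182 and 189 in Ctrl. Rich venous barcodes had 3629 and 4169 in Diabetic and 3530 and 5307 in Ctrl. On this list the poor barcodes lay nearer to rods than to the rich barcodes. Which cells they come from was not tested. Of the 119 rich barcodes, 55 held UMIs of both genes, 31 of Slc38a5 alone and 33 of Nr2f2 alone. Many members lay at the threshold: 86 of the 172 had exactly 2 UMIs, 46 had 3, and 40 had 4 or more with a highest value of 16, while 353 endothelial barcodes just outside had 1 UMI. Barcodes just inside were deeper than those just outside, with medians of 6446 and 3602 UMIs.

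Venous barcodes were first compared with capillary barcodes, the remaining endothelial barcodes with 0 or 1 UMI of Slc38a5 and Nr2f2, to see which genes outside the rule mark them. In the rich barcodes 7 of 13 venous identity genes rose and 6 of 14 arterial identity genes fell. Flrt2, Vcam1, Nrp2 and Vwf were higher and Cxcl12, Dll4, Unc5b, Slco1c1 and Mfsd2a were lower. In edgeR's quasi-likelihood test with the library as a block and Benjamini-Hochberg adjustment, 50 of 7088 genes were higher (0.705%) and 48 lower (0.677%), of which 48 and 46 were not genes of the rule. Venous and capillary barcodes differed in depth, with medians of 4997 and 2277 UMIs, and the classes were cut from the same barcodes that are compared, so the values describe how far apart they lie. The count was 47 without Diabetic 2, 36 without Ctrl 1, 62 without Ctrl 2, 35 by DESeq2, 13 with each barcode thinned to 1000 UMIs, and 284 with the inflamed barcodes kept in both classes.

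Flrt2 (ENSMUSG00000047414; GRCm38 chromosome 12, 95692226 to 95785215), a membrane ligand of Unc5 guidance receptors, had 77.6 and 99.4 CPM in Diabetic venous and 175 and 291 in Ctrl venous barcodes, against 18.0 and 19.7 in Diabetic capillary and 22.9 and 38.8 in Ctrl capillary barcodes. Every venous library was above every capillary library, and the log2 fold change was 2.53 ± 0.25 (SE; edgeR adjusted p = 1.91e-08). Its 90 venous UMIs came from 43 barcodes. Flrt2 also passed in all barcodes of the rule, at a log2 fold change of 2.11 ± 0.31 (edgeR adjusted p = 0.00276). Unc5b, which encodes a receptor of the family that Flrt2 binds and is an arterial and tip cell gene, moved the other way: 22.2, 5.85, 15.0 and 0 CPM in the venous barcodes of Diabetic 1, Diabetic 2, Ctrl 1 and Ctrl 2, against 63.7, 48.8, 70.2 and 55.1 CPM in their capillary barcodes (log2 fold change -2.11 ± 0.39, edgeR adjusted p = 0.00125).

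Vwf, the adhesive glycoprotein stored in endothelial Weibel-Palade bodies, had 274 and 351 CPM in Diabetic venous and 185 and 599 in Ctrl venous barcodes, against 181 and 179 in Diabetic capillary and 120 and 163 in Ctrl capillary barcodes. The log2 fold change was 0.90 ± 0.16 (edgeR adjusted p = 0.00103), and each library was higher in its venous barcodes. S100a10, which takes part in plasminogen activation at the cell surface, rose by 0.73 ± 0.17 on the log2 scale. Vcam1, which binds leukocyte integrins, had 55.4 and 111 CPM in Diabetic venous and 105 and 342 in Ctrl venous barcodes, against 41.2 and 19.7 in Diabetic capillary and 17.95 and 10.2 in Ctrl capillary barcodes. All venous values lay above all capillary values, and Ctrl 2, with 9 venous barcodes, stood highest (log2 fold change 2.12 ± 0.36, edgeR adjusted p = 0.000543). Of the 58418 UMIs in these 9 barcodes 19964 were in 1 barcode, so the Ctrl 2 venous levels lean on it.

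The venous identity list held 13 tested genes outside the rule, of which 7 were higher and none lower; the median log2 fold change was 0.90, against -0.01 over all genes tested. Besides Vcam1 and Vwf they included Adgrg6, an adhesion G protein-coupled receptor, at 3.02 ± 0.55, and Il1r1, the interleukin 1 receptor, at 1.65 ± 0.39 (edgeR adjusted p = 0.00122 and 0.0198). The 35 venous UMIs of Adgrg6 came from 15 barcodes, with 9 of them in 1 barcode of Diabetic 2. Il1r1 was not higher in each library, since Diabetic 2 had 11.7 CPM in venous and 22.3 in capillary barcodes. Nrp2, a co-receptor for semaphorins and VEGF-C, had a log2 fold change of 1.07 and Tmsb10, an actin-binding peptide, one of 0.86. Emcn, a venous and capillary sialomucin, had 303 and 298 CPM in Diabetic venous and 255 and 377 in Ctrl venous barcodes, against 414 and 454 in Diabetic capillary and 384 and 429 in Ctrl capillary barcodes (log2 fold change -0.51 ± 0.14, edgeR adjusted p = 0.0594). Over all barcodes of the rule 1 of 13 venous identity genes was higher, Adgrg6, and 1 was lower, Emcn (log2 fold change -1.05 ± 0.21, edgeR adjusted p = 0.0167). Of 9 tested leukocyte adhesion and chemokine genes 1, Vcam1, was higher in the rich barcodes (median -0.04), and 0 were higher or lower over all barcodes. Ephb4, the venous receptor for ephrin-B2, had a log2 fold change of 0.41 ± 0.22 (edgeR adjusted p = 0.588). Aplnr, Selp and Plvap had no UMI in the rich venous barcodes.

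Of the arterial identity list, 6 of 14 tested members were lower and none was higher, at a median log2 fold change of -0.56. Cxcl12 (ENSMUSG00000061353; GRCm38 chromosome 6, 117168535 to 117181367), a chemokine of arterial and capillary endothelium, had 2720 and 2801 CPM in Diabetic venous and 1448 and 805 in Ctrl venous barcodes, against 5813 and 5462 in Diabetic capillary and 4426 and 4100 in Ctrl capillary barcodes. Every venous value lay below every capillary value (log2 fold change -1.44 ± 0.15, edgeR adjusted p = 4.08e-08). The Notch ligand gene Dll4 had 29.6 and 35.1 CPM in Diabetic venous and 24.96 and 51.4 in Ctrl venous barcodes, against 73.1 and 75.4 in Diabetic capillary and 88.1 and 81.7 in Ctrl capillary barcodes. Its log2 fold change was -1.33 ± 0.28 (edgeR adjusted p = 0.00736), and Efnb2, the arterial ephrin, and Alpl, tissue-nonspecific alkaline phosphatase, were lower at -1.15 and -1.04.

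Capillary identity genes split: of 13 tested, 1 was higher and 4 were lower. Ivns1abp, an actin-associated kelch protein, fell by 2.00 ± 0.29 on the log2 scale, the thyroid hormone and organic anion carrier Slco1c1 by 0.97 ± 0.14, and Mfsd2a, the lysophospholipid carrier that restrains transcytosis in barrier endothelium, by 0.71 ± 0.17. Car4, a membrane-bound carbonic anhydrase, rose instead, with 88.7 and 181 CPM in Diabetic venous and 320 and 360 in Ctrl venous barcodes, against 57.7 and 49.7 in Diabetic capillary and 106 and 81.7 in Ctrl capillary barcodes (log2 fold change 1.46 ± 0.19, edgeR adjusted p = 5.22e-06). In the caveola and transcytosis list, which holds Mfsd2a too, Cav1, the coat protein, and its partner Cavin1 rose by 0.97 ± 0.17 and 0.64 ± 0.14 on the log2 scale. In the barrier transporter list Slco1c1 alone passed of 23 tested, and none of 17 tight and adherens junction genes passed. The glucose transporter gene Slc2a1, the lactate carrier gene Slc16a1 and the junction gene Ocln had log2 fold changes of -0.08 ± 0.12, 0.12 ± 0.12 and 0.17 ± 0.15.

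Other named genes that rose were Ptgis, prostacyclin synthase (2.54 ± 0.50), Fendrr, a long noncoding RNA beside Foxf1 (2.01 ± 0.45), Foxf1, a forkhead factor (1.68 ± 0.36), Emp3 (1.74 ± 0.43), Ctsc, a lysosomal dipeptidyl peptidase (1.74 ± 0.33), and Il6ra, the interleukin 6 receptor (1.70 ± 0.40), as log2 fold changes. Fendrr and Foxf1 lie next to each other, and the 32 and 40 venous UMIs came from 25 and 28 barcodes. Among named genes that fell were Dapl1 (-1.75 ± 0.33), Nav2 (-1.72 ± 0.44), the crystallin gene Crybb2 (-1.61 ± 0.38), Ccn2, a matricellular TGF-beta and YAP target (-1.29 ± 0.30), Gpm6b (-1.25 ± 0.28) and Pcdh17 (-1.18 ± 0.28). Of 22 tested immediate early genes, 4 rose: Gadd45g, Ier3, Zfp36 and Jun, at 1.01, 0.95, 0.71 and 0.56.

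Markers of other cells moved in this comparison too. All 3 tested MHC class II genes were higher, led by the invariant chain gene Cd74 at a log2 fold change of 2.91 ± 0.38, but Cd74 came from 12 of 119 barcodes and stood at 189 and 76.0 CPM in Diabetic and at 15.0 and 0 in Ctrl venous barcodes. Of 11 microglia markers 6 had no UMI in these barcodes, and their summed level was 11.1 and 23.4 CPM in Diabetic and 4.99 and 34.2 in Ctrl. Smooth muscle genes Acta2, Tagln and Myh11 passed as higher, 3 of 5 tested, while 51.6% of the 62 Acta2 UMIs and 72.2% of the 36 Tagln UMIs each came from 1 barcode. The smooth muscle list, 8 genes, summed to 322 and 99.4 CPM in Diabetic venous and 784 and 85.6 in Ctrl venous barcodes, against 223 and 209 in Diabetic capillary and 186 and 127 in Ctrl capillary barcodes. The erythrocyte genes Hbb-bt and Hbb-bs were lower, 2 of 5 tested, and their list summed to 55.4 and 7087 CPM in Diabetic venous and 35.0 and 34.2 in Ctrl venous barcodes, against 1432 and 10650 in Diabetic capillary and 43.3 and 59.2 in Ctrl capillary barcodes. Of 12 rod genes 2 and of 8 tested Müller glia genes 4 were lower. The part of these transcripts in the comparison was not tested.

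**Figure D2:**
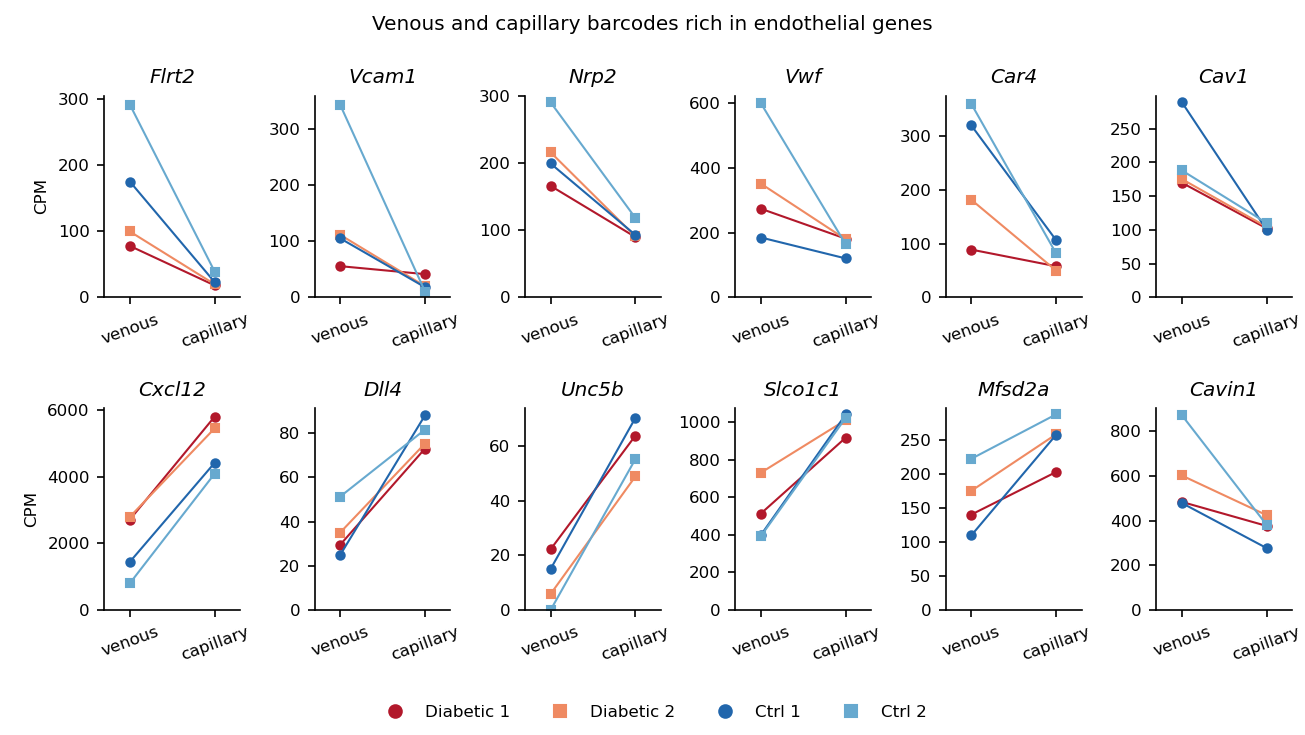
Levels in CPM of 12 genes in venous (left in each panel) and capillary (right) barcodes rich in endothelial genes, 1 line per library (red tones Diabetic, blue tones Ctrl). The lines of Flrt2, Vcam1, Nrp2, Vwf, Car4, Cav1 and Cavin1 run down and those of Cxcl12, Dll4, Unc5b, Slco1c1 and Mfsd2a run up towards capillary in all 4 libraries.

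Over all barcodes of the rule the same test called 11 of 10840 genes higher (0.101%) and 102 lower (0.941%). Barcodes poor in endothelial genes held 71.6% of the venous and 51.2% of the capillary UMIs here, and their part in the counts was not tested. Of 99 lower genes outside the rule 22 were also among the 46 of the rich barcodes, and of 9 higher genes 3 were also among the 48. Shared genes named above included Flrt2, Cxcl12, Dll4 and Slco1c1. The counts rested on single libraries, at 5 without Diabetic 1, 241 without Diabetic 2 and 45 without Ctrl 1. In these sums 8 of 8 tested microglia genes were lower in venous barcodes, with Tyrobp at a log2 fold change of -5.44 and C1qb at -5.88, while in the rich barcodes the microglia list summed to 11.1 and 23.4 CPM in Diabetic venous and 4.99 and 34.2 in Ctrl venous barcodes, against 54.3 and 84.8 in Diabetic capillary and 66.1 and 8.17 in Ctrl capillary barcodes. Their part in the 102 lower calls was not tested.

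The rich venous and capillary barcodes can be set out by their number of Slc38a5 and Nr2f2 UMIs, the values the rule used, as a description with no test. Median depth went up over the bins, at 2159, 3092, 4478 and 5510 UMIs for 0, 1, 2 and 3 or more, and the genes shown were taken from those that differed between the classes. Cxcl12 had 6102, 4386, 2853 and 2517 CPM at 0, 1, 2 and 3 or more UMIs in Diabetic 1, and 5804, 4295, 3165 and 2317 in Diabetic 2. In Ctrl 1 the values were 4689, 3320, 1675 and 1336, and in Ctrl 2 they were 4326, 3000, 1664 and 491. Each step was downward in each library. Flrt2 had 12.6, 44.4, 61.2 and 103 CPM over the same steps in Diabetic 1, and 16.6, 30.2, 81.9 and 123 in Diabetic 2. In Ctrl 1 it had 20.2, 33.9, 151 and 187, and in Ctrl 2 it had 31.99, 72.0, 576 and 187. It was higher at each step in 3 libraries, while Ctrl 2 was highest at 2 UMIs. Of the barcodes, 1756, 288, 62 and 57 lay in the 4 bins, and Ctrl 2 had only 3 and 6 in the last 2. The 1-UMI barcodes that the rule leaves in the capillary class thus lay between the 0-UMI and the venous barcodes for Cxcl12 and Flrt2, in each library.

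**Figure D3:**
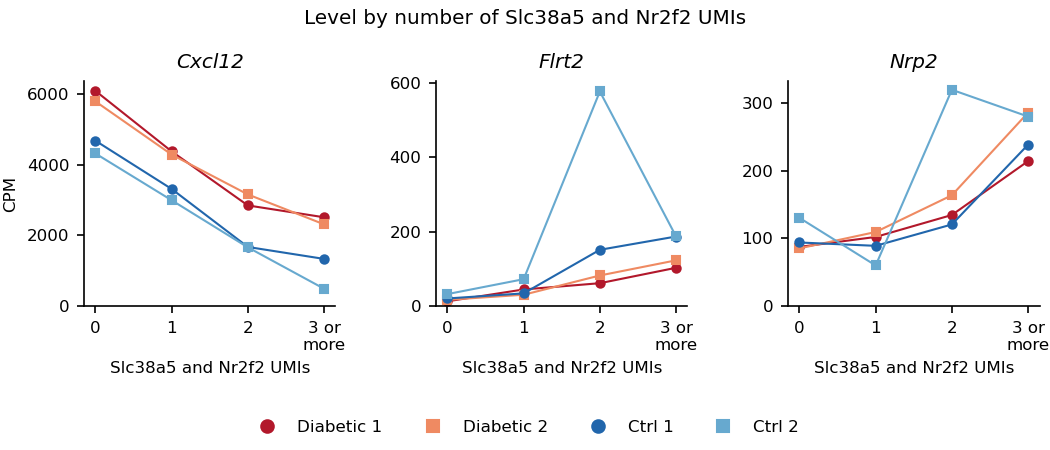
Levels in CPM of Cxcl12, Flrt2 and Nrp2 (1 panel each) in rich barcodes with 0, 1, 2 or 3 and more UMIs of Slc38a5 and Nr2f2 (x axis), 1 line per library. Cxcl12 falls at each step in all 4 libraries, and the Ctrl 2 points at 2 and at 3 or more rest on 3 and 6 barcodes.

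Barcodes carrying Slc38a5 alone, Nr2f2 alone or both had these levels, with spreads that overlap in part. Vwf averaged 619 ± 454 CPM with Slc38a5 alone, 121 ± 82.5 with Nr2f2 alone and 343 ± 152 with both (SD, n = 4 libraries). In Diabetic 1, Diabetic 2 and Ctrl 2 the Nr2f2-only barcodes were lowest, at 162, 137 and 0 CPM, and Ctrl 1 had 183 with Nr2f2 alone and 154 with both. Cxcl12 averaged 2460 ± 1627, 2861 ± 943 and 1425 ± 798 CPM in the same order. The both-gene barcodes were lowest in Diabetic 1, Diabetic 2 and Ctrl 1, and the subsets hold as few as 1 barcode in Ctrl 2, so no test was made.

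Diabetic venous barcodes were then set against Ctrl venous barcodes. After the inflamed barcodes had been dropped, no gene passed: 0 of 3759 genes in the rich barcodes (0%), with 90 higher and 94 lower at an unadjusted p under 0.05 and 0 by DESeq2, and 0 of 8468 genes in all barcodes (0%), with 76 higher and 30 lower and 0 by DESeq2. With the inflamed barcodes kept among the rich venous ones, 36 of 5171 genes passed (0.696%), 31 higher and 5 lower in Diabetic, an alternative chosen after seeing the data. The added barcodes were picked by 4 inflammatory genes and came from Diabetic only, so this count describes what the drop removed and tests nothing further. Those 4 genes were among the 31 higher calls, as were 4 haemoglobin genes, which left 28 others, 23 higher and 5 lower. Hbb-bs, a beta globin of erythrocytes, had 3517 and 9831 CPM in Diabetic and 24.96 and 34.2 in Ctrl with the inflamed barcodes kept, and the part of erythrocyte RNA in the other calls was not tested. The count of 0 in the rich barcodes became 5 without Diabetic 2, 43 without Ctrl 1 and 34 without Ctrl 2. In all barcodes it became 46 without Diabetic 1, 1 without Diabetic 2, 18 without Ctrl 1 and 6 without Ctrl 2.

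The adhesion genes show what the drop does. Vcam1 had 55.4 and 111 CPM in Diabetic and 105 and 342 in Ctrl venous barcodes when inflamed barcodes were dropped, with overlapping groups (log2 fold change -1.18, edgeR adjusted p = 0.885). When they were kept it had 544 and 671 CPM in Diabetic against the same Ctrl values, and did not pass (log2 fold change 1.79, edgeR adjusted p = 0.127). Vwf had 274 and 351 CPM in Diabetic and 185 and 599 in Ctrl when dropped. When kept it had 980 and 934 in Diabetic and did not pass either (edgeR adjusted p = 0.189). Icam1, another integrin ligand, had 140 and 29.2 CPM in Diabetic and 19.97 and 85.6 in Ctrl when dropped, which overlapped (log2 fold change 1.29 ± 0.74, edgeR adjusted p = 0.926). When kept it had 225 and 190 in Diabetic and was among the calls of that setting (edgeR adjusted p = 0.0324). The 2 log2 fold changes of a gene share the Ctrl libraries and the Diabetic barcodes that were not inflamed, and their difference was not tested.

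Some genes with no overlap between the groups, none of which passed, are given by their values in the rich barcodes. With 2 libraries per group, separation is common without any difference. The share of all tested genes that separated was not counted, so it is no result. Igfbp7, an extracellular insulin-like growth factor binding protein of vessels, had 1966 and 2245 CPM in Diabetic and 844 and 736 in Ctrl (log2 fold change 1.35 ± 0.25, edgeR adjusted p = 0.134). Mgp, matrix Gla protein, an inhibitor of BMP signalling and calcification, had 1412 and 1251 in Diabetic and 769 and 548 in Ctrl (0.93 ± 0.26, edgeR adjusted p = 0.428), and Cxcl12 was at 1.20 ± 0.27 (edgeR adjusted p = 0.22). Ch25h, cholesterol 25-hydroxylase, had 81.3 and 117 CPM in Diabetic and 15.0 and 17.1 in Ctrl (2.54 ± 0.65, edgeR adjusted p = 0.357). With inflamed barcodes kept the log2 fold changes of Igfbp7, Mgp and Ch25h were 2.12, 2.30 and 4.57. Fth1, the ferritin heavy chain, had 2491 and 1795 in Diabetic and 1623 and 942 in Ctrl when dropped (0.66 ± 0.27), and 8004 and 6442 in Diabetic when kept.

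By list, no tested member passed in Diabetic against Ctrl. Of 17 heat shock genes 2 had a positive log2 fold change, with a median of -0.59 against -0.01 over all genes tested. The heat shock list summed to 4870 and 5479 CPM in Diabetic venous and 6631 and 7874 in Ctrl venous barcodes. Capillary barcodes and rods had the same order, with 4930 and 4758 in Diabetic capillary and 6452 and 6488 in Ctrl capillary barcodes, and 5292 and 5226 in Diabetic rods and 6497 and 6912 in Ctrl rods. Hsph1, an Hsp70 nucleotide exchange factor, had 18.5 and 23.4 CPM in Diabetic and 74.9 and 120 in Ctrl (-2.12 ± 0.68, edgeR adjusted p = 0.721). The co-chaperone gene Dnaja1 had 211 and 164 in Diabetic and 380 and 668 in Ctrl (-1.44 ± 0.34, edgeR adjusted p = 0.249). Of 10 Notch and vein specification genes 0 were positive (median -0.44), of 9 mitochondrially encoded genes 1 (median -0.54), and of 9 shear stress genes 1 (median -0.25). Of 13 NF-kB, STAT3 and LPS response genes 7 were positive (median 0.07), of 23 barrier transporters 12 (median 0.00), of 16 junction genes 7 (median -0.02) and of 10 ceramide and sphingosine phosphate genes 7 (median 0.23). The ceramidase gene Acer2 had 259 and 234 CPM in Diabetic and 130 and 308 in Ctrl, which overlapped (0.35 ± 0.38, edgeR adjusted p = 0.9998). Fos, an immediate early factor, had 2783 and 1760 in Diabetic and 1343 and 1524 in Ctrl (0.62 ± 0.26, edgeR adjusted p = 0.885), and Txnip, a glucose-induced inhibitor of thioredoxin, had 351 and 304 in Diabetic and 245 and 479 in Ctrl (-0.07 ± 0.34). All 12 rod genes had negative log2 fold changes, and their list summed to 12320 and 5374 CPM in Diabetic and 17030 and 4057 in Ctrl.

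**Figure D4:**
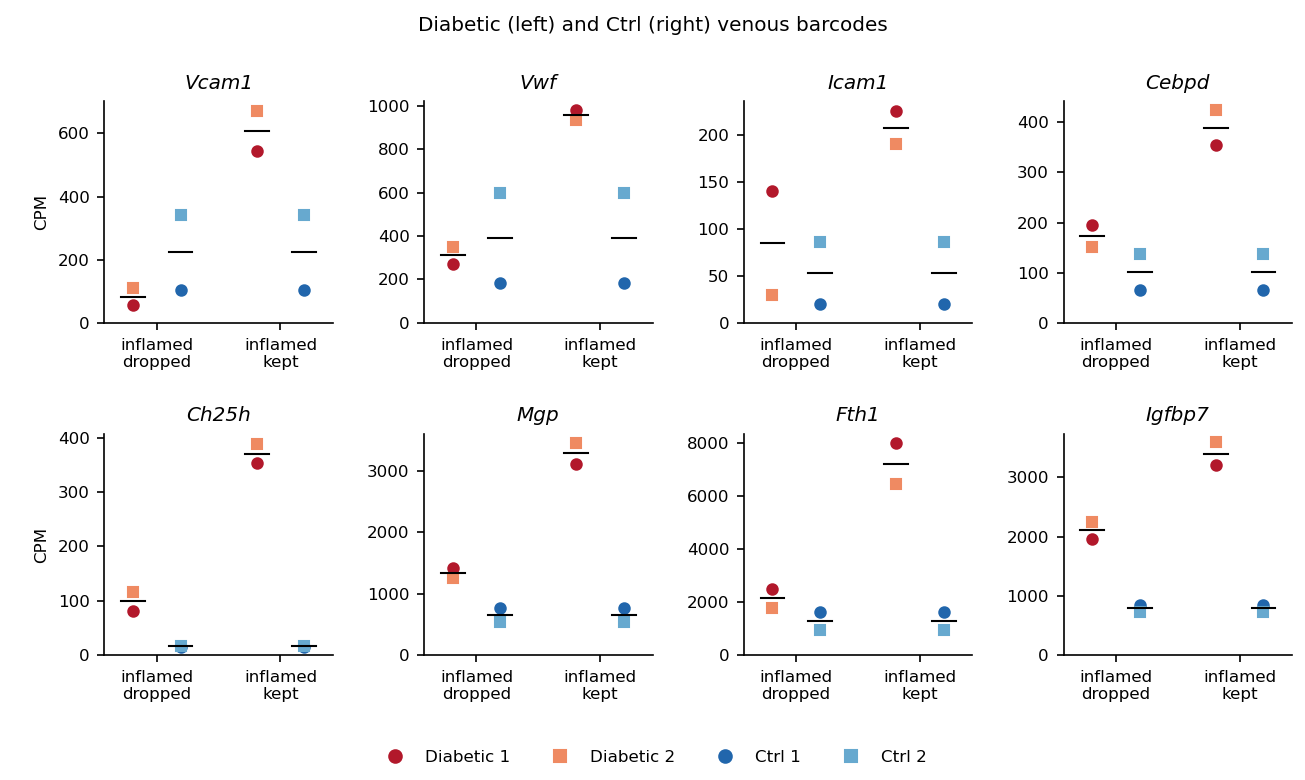
Levels in CPM of 8 genes in rich venous barcodes, Diabetic (red tones) left of Ctrl (blue tones), with the inflamed barcodes dropped (left pair) and kept (right pair). Points are libraries and bars are means of 2 libraries. The Diabetic values of Vcam1 are 55.4 and 111 when dropped and 544 and 671 when kept, and the Ctrl values are unchanged because no Ctrl barcode was dropped.

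The rule allows a few inflammatory UMIs. Of all venous barcodes, 44.6% and 36.4% in Diabetic and 21.8% and 10.0% in Ctrl had any UMI of the 4 genes, 59 and 30 UMIs in Diabetic and 16 and 1 in Ctrl. Of rich venous barcodes, 32.7% and 32.1% in Diabetic and 3.03% and 11.1% in Ctrl had any UMI of the 4 genes, 25 and 27 UMIs in Diabetic and 1 and 1 in Ctrl. Lrg1, a glycoprotein that alters TGF-beta signalling, had 62.8 and 123 CPM in Diabetic venous barcodes, 4.99 and 0 in Ctrl venous barcodes, and 1158 and 1234 in the inflamed Diabetic barcodes. Diabetic capillary barcodes had 56.6 and 73.7 CPM of Lrg1, below the venous values in both libraries, and Ctrl capillary barcodes 0.816 and 2.04. Lcn2, the siderophore-binding acute-phase protein, had 18.5 and 23.4 CPM in Diabetic venous barcodes and 0 and 0 in Ctrl venous barcodes, where 0 of 200286 and of 58418 UMIs were seen, against 1614 and 2259 in the inflamed Diabetic barcodes. As genes of the rule these are descriptions with no test, and the part of free RNA in them was not tested.

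Whether a Diabetic against Ctrl change itself differed between venous and capillary barcodes was tested as an interaction. Of 10840 genes 0 passed in all barcodes (0%), with 77 higher and 89 lower at an unadjusted p under 0.05 and 0 by DESeq2, and 2 of 7088 in the rich barcodes (0.0282%). Junb, an AP-1 factor, had 1323 and 877 CPM in Diabetic venous and 794 and 1883 in Ctrl venous barcodes, against 1005 and 1086 in Diabetic capillary and 447 and 439 in Ctrl capillary barcodes. The Diabetic capillary barcodes lay above the Ctrl capillary barcodes, while the venous groups overlapped (interaction -1.32 ± 0.27 on the log2 scale, edgeR adjusted p = 0.0331). Neither call was made by DESeq2, with DESeq2's size factors in edgeR, or without the library block, at 0 genes each. The other gene, the lens crystallin gene Crygc, had 14 UMIs in 4 barcodes of Diabetic 1, 11 of them in 1 barcode, and none in the other rich venous barcodes. Junb was not alone in its direction: of 22 tested immediate early genes 0 had a positive interaction in the rich barcodes. Their median was -0.58, against 0.02 over all genes tested, and 1, Junb, passed. Fos stood at -1.16 ± 0.26 (edgeR adjusted p = 0.0675). Without Ctrl 1 the count of interactions was 35, with 4 without Diabetic 2 and 5 without Ctrl 2.

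Venous barcodes were last compared with the inflamed endothelial barcodes, 126 rich barcodes in the Diabetic libraries (79 and 47), against 49 and 28 venous ones. These inflamed barcodes were cut from all endothelial barcodes by the 4 inflammatory genes, whatever their Slc38a5 and Nr2f2 UMIs (median 2 in each library). They are therefore not only the 46 and 31 barcodes removed from the venous class. Set against them, the rich venous barcodes had more RNA of the transferrin receptor gene Tfrc and of 9 of 14 capillary identity genes, and less of Fth1 and of 13 of 23 NF-kB, STAT3 and LPS response genes. In edgeR's test over the 2 Diabetic libraries with 4 endothelial classes and the library as a block, 117 of 8354 genes were higher (1.4%) and 282 lower (3.38%) in venous barcodes, of which 115 and 277 were not genes of the rule. In all barcodes 3 of 10880 were higher (0.0276%) and 154 lower (1.42%), and of 148 lower genes outside the rule 126 were shared with the rich set. In those sums poor barcodes held 77.4% and 55.4% of the venous and 45.0% and 51.6% of the inflamed UMIs. The part of these barcodes in the counts was not tested. Thinning to 1000 UMIs left 78 calls in the rich barcodes, DESeq2 189 and the fit without the block 226. The classes were cut by 4 inflammatory genes in these same barcodes. Only the venous class also required Slc38a5 and Nr2f2 and left out arterial and interferon-responding barcodes. Genes expressed with any genes of these cuts were therefore bound to differ, in either direction, and the values describe the distance between the classes.

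Part of the barrier transporter and capillary identity lists was higher in rich venous than in rich inflamed barcodes. Over all barcodes 0 of 23 barrier transporters were higher or lower, and of 15 capillary identity genes 0 were higher and 1 was lower. Tfrc, the transferrin receptor that carries iron across the barrier, had 333 and 392 CPM in venous and 58.3 and 62.5 in inflamed barcodes (log2 fold change 2.45 ± 0.19, edgeR adjusted p = 5.45e-09). Car4 had 88.7 and 181 CPM in venous and 7.07 and 22.2 in inflamed barcodes (3.04 ± 0.43), and Slc7a1, the cationic amino acid transporter, 395 and 649 in venous and 186 and 141 in inflamed barcodes (1.496 ± 0.188). Of 23 barrier transporters 9 were higher, with Slc40a1, the iron exporter ferroportin, at 1.52 ± 0.29 and the reelin and apolipoprotein E receptor gene Lrp8 at 1.31 ± 0.20, and 1, Slc2a1, was lower at -0.81 ± 0.10. Of 14 capillary identity genes 9 were higher and none lower, among them Mfsd2a (1.02 ± 0.25), Slc16a1 (0.86 ± 0.11), Cxcl12 (0.93 ± 0.10) and the VEGF receptor gene Kdr (0.93 ± 0.15). Of 18 junction genes Ctnnb1, beta-catenin, alone passed, at 0.81 ± 0.13, and 4 of 11 caveola and transcytosis genes were higher.

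Other genes named as higher were Cyp26b1, a retinoic acid hydroxylase (3.52 ± 0.55), Flrt2 (2.695 ± 0.434), Bok, a BCL2 family member (2.56 ± 0.34), Cd40, a TNF receptor family member (2.43 ± 0.67), Sh3d19 (2.41 ± 0.56), Ndnf (2.13 ± 0.50), the intermediate filament gene Nes (2.09 ± 0.28) and Lrrn3 (2.07 ± 0.56), as log2 fold changes. Nes had 129 and 175 CPM in venous and 31.8 and 32.3 in inflamed barcodes. Flrt2 and Car4 were thus higher in venous barcodes than in either neighbour class, a description, since only the venous class required Slc38a5 and Nr2f2.

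The genes that were lower included known targets of NF-kB and STAT3. Of 23 tested genes of that list 13 were lower and none higher, of 23 immediate early genes 14 were lower and none higher, and of 10 adhesion and chemokine genes 4 were lower and none higher. Over all barcodes the counts of lower genes were 12, 11 and 4 of the same lists, with none higher. The classes also differed there in their share of poor barcodes. Sele, endothelial selectin, had no UMI in the rich venous barcodes of any library, 1 UMI over all venous barcodes, and 110 and 84.7 CPM in rich inflamed barcodes, at least 14.4-fold lower in venous barcodes against 3 counts over the 2 libraries. On the same floor Ptgs2, cyclooxygenase 2, was at least 33.6-fold lower, Tnfsf8, CD30 ligand, at least 11.4-fold, Clca3a1 at least 7.35-fold and Upp1, uridine phosphorylase, at least 6.52-fold. Cd14, the LPS co-receptor, had 2 venous and 164 inflamed UMIs (inflamed over venous ratio 34.1, 95% counting interval 9.29 to 284), and Igfbp4 had 3 venous and 173 inflamed UMIs (24.0, interval 8.07 to 117). Mctp1 and Emilin1 had 1 venous UMI each in Diabetic and 46 and 43 inflamed UMIs.

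Vcam1 had 55.4 and 111 CPM in venous and 896 and 1183 in inflamed barcodes (log2 fold change -3.87, edgeR adjusted p = 1.78e-08), and Vwf had 274 and 351 in venous and 1488 and 1485 in inflamed barcodes (-2.40). Of 14 tested venous identity genes 8 were lower and 1, Nrp2, was higher, so that list separated venous from capillary barcodes in one direction and from inflamed barcodes in the other. Fth1 had 2491 and 1795 CPM in venous and 10590 and 9316 in inflamed barcodes (-2.34 ± 0.10), Mgp was at -2.24 ± 0.10 and Cebpd, an acute-phase transcription factor, at -1.87 ± 0.16. Of 16 glucose, insulin and fatty acid genes 8 were lower and none higher, with Igfbp3 at -1.51 ± 0.25 and Txnip at -0.80 ± 0.15, though Txnip stood at 0.13 with each barcode thinned to 1000 UMIs. Of 21 ceramide and sphingosine phosphate genes 2 were lower, the ceramidase gene Acer2, with 259 and 234 CPM in venous and 601 and 617 in inflamed barcodes (-1.40 ± 0.15, edgeR adjusted p = 5.25e-07), and Ugcg, glucosylceramide synthase (-2.34 ± 0.45). Of 16 MHC class I genes 4 were lower, with H2-K1 at -0.86 ± 0.12.

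Erythrocyte RNA moved with this comparison: the 6-gene list summed to 55.4 and 7087 CPM in venous and 8286 and 21350 in inflamed barcodes, and Hbb-bt was lower at a log2 fold change of -5.56 ± 0.43. Of the 19 Hbb-bt UMIs in rich venous barcodes 17 were in 1 barcode. Rod genes summed to 12320 and 5374 in venous and 8185 and 4821 in inflamed barcodes. Median depth was 4898 and 4524 UMIs in venous and 6539 and 7420 in inflamed barcodes. The part of these differences in the gene counts was not tested.

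**Figure D5:**
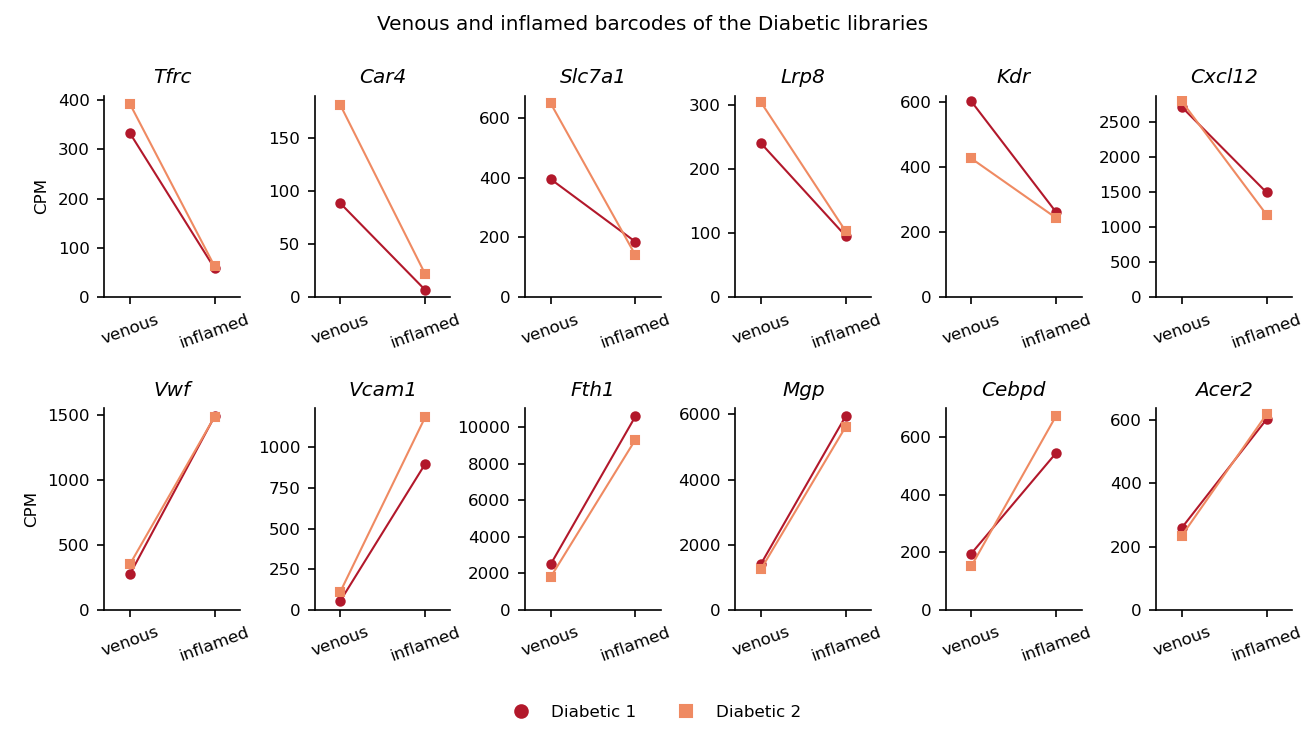
Levels in CPM of 12 genes in venous (left in each panel) and inflamed (right) barcodes of Diabetic 1 and Diabetic 2, rich in endothelial genes, 1 line per library. Tfrc, Car4, Slc7a1, Lrp8, Kdr and Cxcl12 are higher in venous barcodes, and Vwf, Vcam1, Fth1, Mgp, Cebpd and Acer2 are lower, in both libraries.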

How the data were processed

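Each library gave a matrix of whole-number UMI counts per gene and barcode, deposited by the authors as Cell Ranger 7.0.0 wrote it, per the file headers; STAR 2.7.10b and the mouse build mm10 stand in the submitters' processing notes, and the libraries were 10x 3′ v3, per the labels' protocols. Gene positions came from the GENCODE annotation of GRCm38. The 172 members, the classes and the 39 gene lists were chosen with earlier results of these data known.

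Barcodes with fewer than 500 UMIs or 300 genes, or with over 20% of UMIs from mitochondrial genes, were left out. Capillary barcodes were endothelial ones that were not inflamed, arterial or interferon-responding and had at most 1 UMI of Slc38a5 and Nr2f2. No doublet caller was used in the results given first; Scrublet marked 0% and 0.426% of barcodes in Diabetic and 0.614% and 0.943% in Ctrl. UMI counts were summed per library and class, and the library was the replicate. edgeR 4.0.16 in R 4.3.3 fitted quasi-likelihood models with TMM factors and filterByExpr; two-sided tests were adjusted by Benjamini-Hochberg over all genes tested and called at an adjusted p under 0.05. The block was the library between classes and none between Diabetic and Ctrl. All fits were repeated on barcodes with at least 20 endothelial UMIs per 10000, chosen after seeing the data, and tested on simulated counts. Levels (CPM) are UMIs per 1000000 of a class's sum. DESeq2 1.42.0 and the other settings are given under the dependence on processing.

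Named genes were, per comparison, the 10 highest and 10 lowest log2 fold changes among called genes of at least 20 CPM on average with the same direction in each library or no overlap between groups, outside the rule; up to 4 called members of a list, otherwise up to 2; and 25 genes named whatever their result, of which 1 is not reported here. Genes of other cell types, of the steps by venous UMIs and of the inflamed-kept setting were named after their values were seen. Intervals and the floor of 3 counts cover counting error only.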

Additional observations from a re-analysis of the deposited data

Results flagged for a closer look

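The Diabetic against Ctrl change of 2 genes differed between venous and capillary barcodes rich in endothelial genes by the interaction test. Junb had an interaction of -1.32 on the log2 scale (SE 0.27, edgeR adjusted p = 0.0331), with 1323 and 877 CPM in Diabetic venous and 794 and 1883 in Ctrl venous barcodes. Crygc had 10.09 (SE 2.09, edgeR adjusted p = 0.0331), with 51.7 and 0 CPM in Diabetic venous and 0 and 0 in Ctrl venous barcodes, against 12.4 and 6.85 in Diabetic capillary and 71.0 and 14.3 in Ctrl capillary barcodes. Its 14 venous UMIs came from 4 barcodes of Diabetic 1. All venous levels at 0 on the Ctrl side make that fitted value depend on the prior count. The cause of either difference was not tested.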

How the results depend on the processing

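In all barcodes, Diabetic against Ctrl (0 calls) gave 39 calls with no filter on low counts, 1 with a venous cut of 3 UMIs, and 1 to 46 with 1 library left out. Venous against capillary (113) gave 401 with no filter, 49 by DESeq2, 12 with no replicate block, 15 with both venous genes required, 39 thinned to 1000 UMIs, 74 at 4000 UMIs or more, 17 without barcodes holding S100a8, S100a9, Gsto1 or Psca, and 5 to 241 with 1 library left out. The interaction (0) gave 5 with no filter, 1 with any inflammatory UMI dropped, 2 at 4000 UMIs or more, and 2 to 30 with 1 library left out. Venous against inflamed (157) gave 521 with no filter, 21 with both genes required, 53 thinned, and 38 without the S100a8, S100a9, Gsto1 or Psca barcodes. In the rich barcodes, Diabetic against Ctrl (0) gave 15 with no filter, 16 with the replicate block, 2 at 40 endothelial UMIs per 10000, 5 thinned, 2 with a cut of 3 UMIs, 36 with inflamed barcodes kept, and 0 to 43 with 1 library left out. Venous against capillary (98) gave 35 by DESeq2, 42 with no replicate block, 13 thinned, 284 with inflamed barcodes kept, and 36 to 72 with 1 library left out. The interaction (2) gave 0 with DESeq2 size factors, by DESeq2, with no replicate block, thinned, with capillary barcodes at 0 UMIs and without Scrublet calls, 1 at 40 per 10000, 4 with no filter and with any inflammatory UMI dropped, 9 at 1000 UMIs and 10% mitochondrial, 20 with inflamed barcodes kept, and 2 to 35 with 1 library left out. Venous against inflamed (399) gave 189 by DESeq2, 226 with no replicate block, 78 thinned and 258 with a cut of 3 UMIs. The causes were not tested. For venous against inflamed, leaving out a Diabetic library left no residual degrees of freedom and was not run. Libraries with the same number deviated together at a correlation of 0.363 over 8468 genes, and 0.18 over 3759 genes in the rich barcodes, with 2 pairs, too few to decide whether the numbers mark a shared batch. Of the values for 177 named genes, 2016 kept direction and side of the threshold, 221 lost and 49 gained a call, 149 untested values moved and 4 reversed. Reversed were, with inflamed barcodes kept, Acer2 at 0.49 and Igfbp3 at 0.62 in rich venous against capillary and Hbb-bt at 0.76 in all barcodes, and, thinned, Txnip at 0.13 in rich venous against inflamed.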

Other observations

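Among the 9 genes outside the rule that were higher in venous than capillary barcodes over all barcodes were Fbln1 and Ogn, extracellular matrix genes, Gpx3, a secreted glutathione peroxidase, F5, coagulation factor V, and Crhbp, with log2 fold changes of 4.84 ± 0.78, 2.84 ± 0.59, 3.84 ± 0.54, 4.02 ± 0.75 and 3.98 ± 0.65 (edgeR adjusted p = 0.00628, 0.0301, 0.00262, 0.013 and 0.00744); they were chosen after their values were seen. The fibroblast list of 8 genes summed to 23.7 and 183 CPM in the poor Diabetic venous barcodes and 3.34 and 0 in the poor Ctrl venous barcodes, and to 0 and 23.4 in the rich Diabetic and 4.99 and 0 in the rich Ctrl venous barcodes. Its part in those calls was not tested.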
